A study of Mus musculus with 6 samples.

Results

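The antioxidant and Nrf2 response genes examined here are 10 of the 51804 gene symbols in an RNA-seq table of mouse kidney: Nfe2l2, Nqo1, Hmox1, Gclc, Gclm, Gpx1, Gpx3, Gpx4, Cat and Sod2. They were chosen by symbol for their known roles, and the counts of all transcripts of a symbol were summed. Of the 10, 9 passed the filter on low counts, and Gpx3 is listed at 0 in all 6 libraries. The study compared 3 kidney libraries of genotype Ccnb1f/f;Cdh16-Cre (labelled knockout) with 3 of genotype Ccnb1f/f (control), so the floxed alleles of cyclin B1 are present in both groups and Cre in 1 of them. The Cdh16 promoter is active in renal tubular epithelium, while whole kidney also holds vessels, stroma and blood-derived cells. The labels used here give no age, sex, strain background or floxed exons. They do not say that each library is a separate animal, and the p-values therefore cover only the spread among the 6 libraries, which may be technical. The extraction text speaks of both kidney and cultured cells.

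Nrf2, the product of Nfe2l2, is a transcription factor that is held at a low level by Keap1, an adaptor that hands it to a Cul3 ubiquitin ligase for breakdown. Oxidants and electrophiles modify cysteines of Keap1, Nrf2 then accumulates, pairs with a small Maf protein and binds antioxidant response elements near its target genes. Among these targets are Nqo1, Hmox1 and both subunits of the enzyme that starts glutathione synthesis. Control of Nrf2 lies mainly at the protein, so its transcript level is not a measure of its activity. Superoxide made in mitochondria is turned into hydrogen peroxide by Sod2, and catalase (Cat) and the glutathione peroxidases (Gpx) remove peroxides. Kidney tubules are rich in mitochondria and peroxisomes, and the proximal tubule is known as the main source of the Gpx3 that circulates in plasma.

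The 3 glutathione peroxidases among these genes share a feature that the selection by symbol did not use. Each carries selenocysteine in its active site, encoded by a TGA codon that is otherwise a stop. The coding stretches around that codon are shown because the feature sets Gpx1, Gpx3 and Gpx4 apart from the other 7 genes. They come from the GENCODE M21 transcripts Gpx1-201, Gpx3-201 and Gpx4-202, run 5′ to 3′ on the plus strand with 30 bases on each side, and have the annotated selenocysteine codon in capitals.
Gpx1 (codon at chr9:108339451-108339453, GRCm38): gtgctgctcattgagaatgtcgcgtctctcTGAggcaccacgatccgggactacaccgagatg
Gpx3 (codon at chr11:54907256-54907258, GRCm38): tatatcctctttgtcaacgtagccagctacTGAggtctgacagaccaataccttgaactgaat
Gpx4 (codon at chr10:80054737-80054739, GRCm38): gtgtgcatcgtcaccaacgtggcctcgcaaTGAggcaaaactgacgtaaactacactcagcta
The codon is number 47 of the Gpx1 reading frame and number 73 of those of Gpx3 and Gpx4 in these transcripts. Over the 63 bases, Gpx1 and Gpx4 are identical at 35, Gpx3 and Gpx4 at 29, and Gpx1 and Gpx3 at 27.

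Promoters were searched for the core antioxidant response element TGACNNNGC on both strands, from 250 bases before to 50 after each start site in RefSeq (GRCm38.p6). Windows were found for 8 of the 10 genes, the exceptions being Hmox1 and Gclc, and the motif was in those of Nfe2l2 and Gclm. Of all 32851 windows, 12.4% hold it, and of all 27025 genes with a window, 14% have it in at least 1. The 2 matches are shown in capitals with their flanks, written 5′ to 3′ on the strand of the gene.
Nfe2l2 (chr2:75704869-75704913, minus strand): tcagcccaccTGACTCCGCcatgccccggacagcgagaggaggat
Gclm (chr3:122245397-122245457, plus strand): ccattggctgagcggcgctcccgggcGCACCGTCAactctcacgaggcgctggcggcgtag
In Nfe2l2 the match begins 240 bases before the start site. In Gclm it begins 134 bases before the start and reads TGACGGTGC on the opposite strand. A match is a description of letters and not a measured binding site, and elements farther from a start site lie outside these windows.

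Depth ran from 16061435 to 21261226 estimated counts a library, and edgeR's quasi-likelihood method tested 15017 genes. The targeted gene gives no check of the labels: Ccnb1 had 18, 15 and 11 counts in the libraries labelled knockout against 11, 17 and 7 in the controls, at 0.34 (log2, SE 0.46). Control 2 held the lowest level of 22.8% of all tested genes, more than any other library. Kidney markers were abundant: Slc34a1, the phosphate transporter of proximal tubule, was at 4545 to 6827 CPM (counts relative to TMM-scaled library depth) and Umod of thick ascending limb at 4162 to 4898 CPM. In whole tissue, fewer cells of a type and less RNA per cell cannot be told apart.

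No difference between the libraries labelled knockout and the controls was detected in any of the 9 tested antioxidant genes. By edgeR with Benjamini-Hochberg adjustment over all genes, 0 of 9 passed an adjusted p of 0.05, and each had an adjusted p of 0.9995, against 0.0133% of all tested genes called (0.00666% higher and 0.00666% lower, each of them 1 gene). The gene called lower is Kap, which is listed at 0 in all 3 libraries labelled knockout. At an unadjusted p under 0.05 the count was also 0 of 9, against 3.23% of all genes. DESeq2 called 0 of 9, against 0.0817% of the genes it tested, and limma called 0 of 9. Groups overlapped in all 9 genes, whereas 8.18% of all tested genes had groups that did not overlap. The median log2 fold change of the 9 was 0.11, with 7 above 0 and 2 below. Over all 15017 genes the median was -0.01, with 7358 above 0. Single libraries moved that median, to -0.04 without control 2 and to 0.03 without knockout 2.

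**Figure D1:**
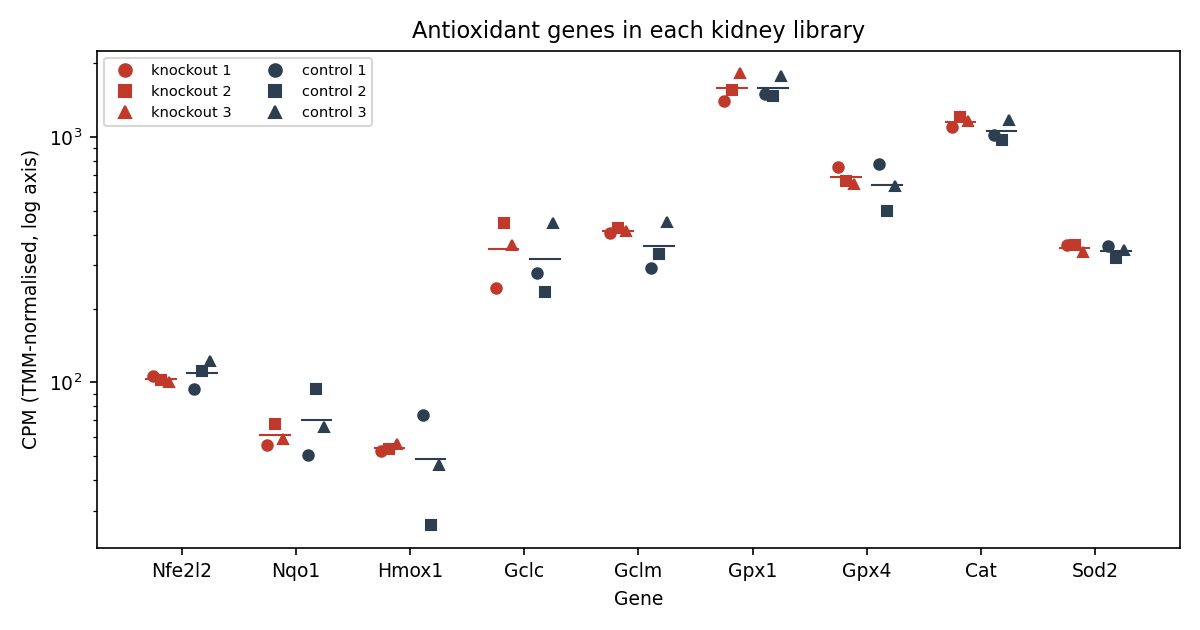
CPM (log axis) of the 9 tested genes in each library, with red symbols for the 3 libraries labelled knockout, dark symbols for the 3 controls and a line at each group's mean. The groups overlap for every gene, and Hmox1 and Nqo1 of control 2 (26.1 and 94.2 CPM) lie apart from the other libraries; Gpx3, listed at 0, is not drawn.

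The transcript of Nrf2 itself was close to level across libraries. Nfe2l2 (ENSMUSG00000015839, chromosome 2, 75675513 to 75704641, GRCm38, minus strand) was at 107, 103 and 101 CPM in the libraries labelled knockout and at 94.3, 112 and 122 CPM in the controls. The libraries labelled knockout lay within the range of the controls. Group levels were 103 ± 3.10 and 109 ± 14.2 CPM (SD, n = 3 each), a log2 fold change of -0.08 (SE 0.12, 95% interval -0.35 to 0.18). Between 94.9% and 96.6% of its counts fell on the protein-coding transcript Nfe2l2-201 in every library.

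Nqo1 encodes a quinone reductase that transfers both electrons at once and is a standard readout of Nrf2 activity. Nqo1 (ENSMUSG00000003849, chromosome 8, 107388225 to 107403206, minus strand) was at 55.6, 67.7 and 58.9 CPM in the libraries labelled knockout and at 50.7, 94.2 and 65.8 CPM in the controls. Control 2 was the highest of the 6 and control 1 the lowest. The log2 fold change was -0.21 (SE 0.21, 95% interval -0.70 to 0.27), and 0.06 (SE 0.15) without control 2. All Nqo1 counts belonged to 1 protein-coding transcript.

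Hmox1 encodes haem oxygenase, which opens the haem ring and releases iron, biliverdin and carbon monoxide. Hmox1 (ENSMUSG00000005413, chromosome 8, 75093621 to 75100589, plus strand) was at 52.6, 53.6 and 55.9 CPM in the libraries labelled knockout and at 73.9, 26.1 and 46.1 CPM in the controls. The libraries labelled knockout were close together, and the controls held both the highest and the lowest value, 2.83-fold apart. The log2 fold change was 0.15 (SE 0.31, 95% interval -0.57 to 0.87), the widest interval among the 9 genes, and it was -0.15 (SE 0.19) without control 2 and 0.58 without control 1. With an SD of 0.50 of log2 CPM over the 6 libraries, Hmox1 varied most of the 9 genes, and 86.8% of all tested genes had a smaller SD.

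Macrophages that take up red cells are a known site of Hmox1 expression, so markers of both cell types are set beside it. The summed level of 12 macrophage and monocyte markers was 166 to 219.9 CPM in the libraries labelled knockout and 144 to 159 CPM in the controls. Of 11 tested members, 11 had a log2 fold change above 0, from 0.08 to 1.76, beside 7358 of all 15017 genes. By edgeR 0 of them were called, and 2 had an unadjusted p under 0.05, against 3.23% of all genes. Groups did not overlap in 3 of the 11, against 8.18% of all genes. The median of 0.37 was 0.18 without knockout 1. Cd163, a scavenger receptor for haemoglobin, was at 0.253 to 0.646 CPM and was not tested. The 6 erythroid markers summed to 136 to 207 CPM and 145 to 229 CPM, with a median log2 fold change of -0.25 over 5 tested members, which was -0.08 without control 1 and -0.38 without knockout 2. The library with the highest Hmox1, control 1, had the lowest macrophage sum and the highest erythroid sum. Control 2, with the lowest Hmox1, had sums of 156 and 182 CPM. Knockout 3, at 55.9 CPM of Hmox1, had the lowest erythroid sum, 136 CPM. The part of these cells in the Hmox1 values was not tested.

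The pattern of Hmox1 over the 6 libraries was most like that of Fjx1, Scfd2, Bvht, H2afj and Ppm1j. Likeness was the root mean square difference of log2 CPM after each gene was centred on its own mean, and it was 0.0932, 0.116, 0.119, 0.122 and 0.136 for these genes. In each of the 5 genes, as in Hmox1, control 1 was the highest library and control 2 the lowest. H2afj, a histone H2A variant and the most abundant of them, was at 169, 140.2 and 139 CPM in the libraries labelled knockout and at 192, 74.0 and 121 CPM in the controls. With 6 libraries and 15017 genes, close patterns arise for any gene, and these are given as a description.

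Glutathione synthesis begins with glutamate-cysteine ligase, an enzyme of a catalytic subunit (Gclc) and a modifier subunit (Gclm) that raises its efficiency. Gclc (ENSMUSG00000032350, chromosome 9, 77754535 to 77794485, plus strand) was at 242, 448 and 364 CPM in the libraries labelled knockout and at 279, 233 and 446 CPM in the controls. Knockout 2, knockout 3 and control 3 were high and the other 3 libraries low, so the split ran across both groups. Levels were 351 ± 103 and 319 ± 112 CPM (SD, n = 3 each), with a log2 fold change of 0.14 (SE 0.28, 95% interval -0.52 to 0.79), -0.08 without knockout 2 and -0.05 without control 2.

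Gclm (ENSMUSG00000028124, chromosome 3, 122245557 to 122270732, plus strand) was at 408, 424 and 413 CPM in the libraries labelled knockout and at 292, 333 and 451 CPM in the controls. Control 1 and control 2 were below the libraries labelled knockout and control 3 was above them. Means were 415 ± 8.28 and 359 ± 82.7 CPM (SD, n = 3 each). Its log2 fold change of 0.21 (SE 0.16, 95% interval -0.16 to 0.59) was the highest of the 9 genes. It stayed above 0 in all 14 alternative fits, from 0.08 to 0.41. Those of Cat (0.07 to 0.21) and Sod2 (0.01 to 0.08) did so too, and all these fits reuse the same 6 libraries. Gm17494, on the opposite strand, and Gm6061, on the same one, overlap Gclm, with at most 90.0 and 77.0 counts in a library, and counting was not stated to use strand.

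Counts of Gclm were spread over several transcripts, and in control 1 they were divided differently from the other libraries. The full-length protein-coding transcript Gclm-201 took 55.1% to 60.4% of the counts in every library. The noncoding transcript Gclm-202 took 13.5%, 7.27% and 13.3% in the libraries labelled knockout, 14.5% in control 2 and 17.5% in control 3, but 0.254% (12 counts) in control 1. In control 1 the shorter coding transcripts Gclm-206 and Gclm-203 took 30.9% and 12.3%, each more than in any other library. Such shares are estimates by the authors' counting program and carry no test here.

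The order of the subunits per length depended on which transcripts were summed. Over all protein-coding transcripts, Gclc was at 70.5, 129 and 108 FPKM (fragments per kilobase of transcript, scaled to library depth) in the libraries labelled knockout and at 78.4, 72.2 and 126 FPKM in the controls. Gclm was at 149, 180.1 and 164 FPKM and at 147, 125 and 159.6 FPKM. The ratio of Gclc to Gclm was 0.474, 0.717 and 0.661 in the libraries labelled knockout; the controls had 0.533, 0.579 and 0.792, so Gclc was the lower in all 6 libraries and the groups overlapped. Short transcripts carried much of the Gclm sum: Gclm-201 alone was at 28.2 to 44.5 FPKM, below Gclc in every library.

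**Figure D2:**
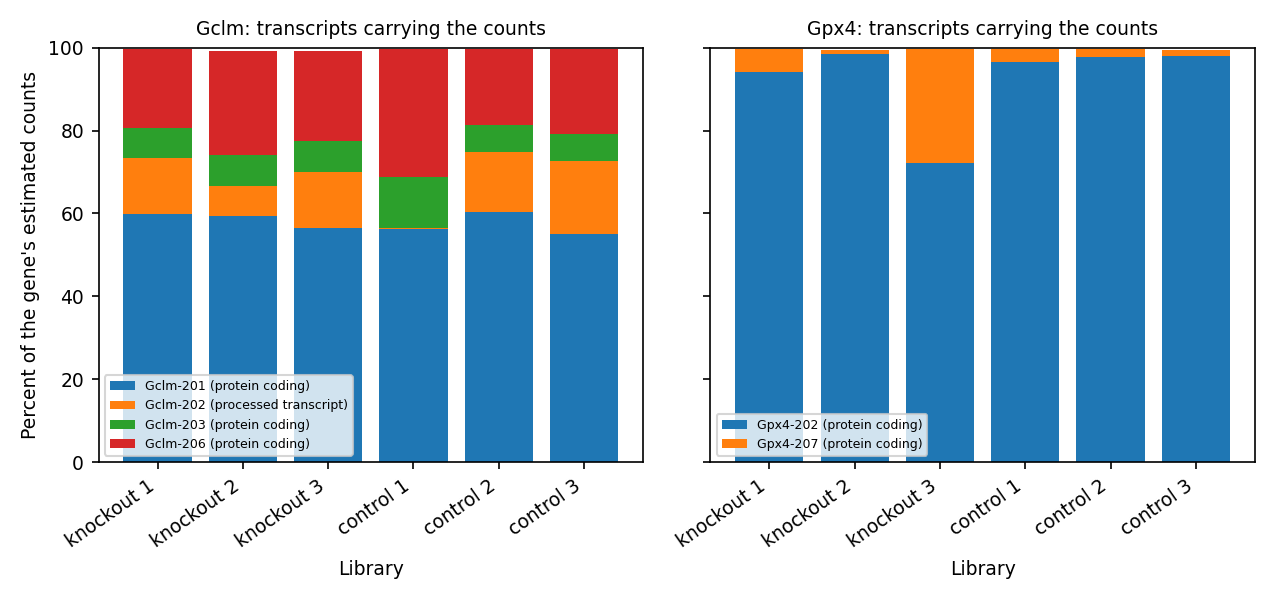
Percent of the estimated counts of Gclm (left) and Gpx4 (right) that each transcript took in each library, for transcripts that reached 1% in a library. Gclm-202 is nearly missing from control 1 (0.254%), and Gpx4-207 takes 27.3% in knockout 3 against 1.10% to 5.67% in the other 5 libraries.

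Of the selenium-dependent peroxidases, Gpx1 removes hydrogen peroxide in cytosol and mitochondria. Gpx1 (ENSMUSG00000063856, chromosome 9, 108338903 to 108340343, plus strand) was the most abundant of the 9 genes, at 1399, 1556 and 1820.1 CPM in the libraries labelled knockout and at 1501, 1476 and 1777 CPM in the controls. Both groups covered nearly the same range. Means of 1592 ± 213 and 1585 ± 167 CPM (SD, n = 3 each) gave a log2 fold change of 0.01 (SE 0.14, 95% interval -0.33 to 0.34).

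Gpx4 reduces lipid hydroperoxides within membranes and is the enzyme whose loss leads to ferroptosis, a form of cell death by lipid peroxidation. Gpx4 (ENSMUSG00000075706, chromosome 10, 80047166 to 80056439, plus strand) was at 758, 661 and 646 CPM in the libraries labelled knockout and at 778, 499 and 634 CPM in the controls. Control 2 stood below the other 5 libraries. The log2 fold change was 0.11 (SE 0.17, 95% interval -0.28 to 0.50), and -0.04 (SE 0.13) without control 2. The transcript Gpx4-202 took 94.1% to 98.5% of the counts in 5 libraries and 72.3% in knockout 3, where Gpx4-207 held 27.3% (3828 counts). The coding transcripts Gpx4-201, Gpx4-202 and Gpx4-207 all carry the selenocysteine codon shown above in the GENCODE M21 annotation, and the total for the gene in knockout 3 was within the range of the other libraries.

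Gpx3, the secreted peroxidase of plasma, could not be described from these values. Gpx3 (ENSMUSG00000018339, chromosome 11, 54902453 to 54910377, plus strand) is listed at 0 counts for each of its 3 transcripts in each of the 6 libraries. By counting error alone, a 0 allows 3 counts, or 0.138 to 0.189 CPM. Of 21772 protein-coding symbols, 4884 are listed at 0 in all 6 libraries. They include genes that every cell uses, 4 of the 13 protein-coding genes of the mitochondrial genome (mt-Atp6, mt-Atp8, mt-Co1 and mt-Co3). Kap, an abundant proximal tubule transcript, is listed at 0 in one group, the libraries labelled knockout, and at 8727 to 16609 CPM in the controls. The mitochondrial genes and Kap were looked up after the 0 of Gpx3 had been seen. How these entries of 0 arose was not tested, and Gpx3 is given as listed, with no level and no comparison. For proximal tubule, its known source, 10 of 10 markers were tested. They summed to 14483 to 17432 CPM in the libraries labelled knockout and 14218 to 18859 CPM in the controls. Whether tubule content bears on the 0 of Gpx3 was not tested.

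Catalase breaks down hydrogen peroxide in peroxisomes without a cofactor to be recycled. Cat (ENSMUSG00000027187, chromosome 2, 103453849 to 103485160, minus strand) was at 1096, 1202 and 1164 CPM in the libraries labelled knockout and at 1024, 977 and 1173 CPM in the controls. Control 1 and control 2 were below all 3 libraries labelled knockout, and control 3 was among them. The difference was small, with 1154 ± 54.1 against 1058 ± 102 CPM (SD, n = 3 each) and a log2 fold change of 0.13 (SE 0.12, 95% interval -0.15 to 0.40).

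Sod2, the manganese superoxide dismutase of the mitochondrial matrix, was the least variable of the 9 genes. Sod2 (ENSMUSG00000006818, chromosome 17, 13007839 to 13018119, plus strand) was at 362, 362 and 339.6 CPM in the libraries labelled knockout and at 359.7, 323 and 346 CPM in the controls. The highest library was 1.12-fold above the lowest. Its SD of log2 CPM over all 6 was 0.07, and 2.53% of tested genes had a smaller one. The log2 fold change of 0.05 (SE 0.10) had a 95% interval of -0.18 to 0.28.

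**Figure D3:**
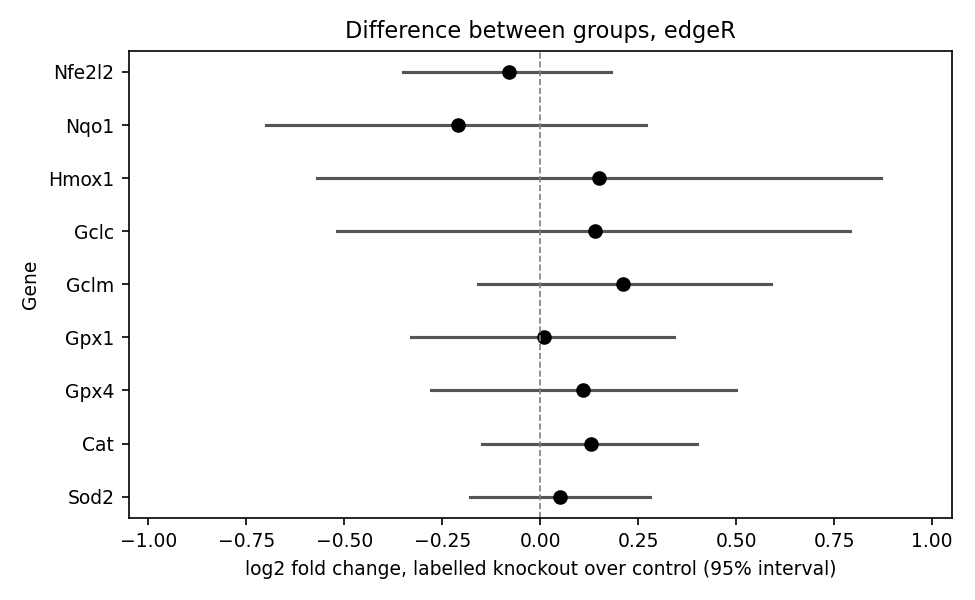
Log2 fold change of labelled knockout over control for the 9 tested genes (points), with 95% intervals from edgeR (lines) and a dashed line at 0. Every interval includes 0; those of Sod2, Cat and Nfe2l2 are the narrowest and that of Hmox1, from -0.57 to 0.87, is the widest.

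Of the 9 lowest values, 8 were in controls, while the 9 highest were spread over all 6 libraries. Over all tested genes, control 1, control 2 and control 3 held the lowest level of 18.7%, 22.8% and 14.7%. Control 2 was the lowest library for 5 of the 9 genes (Hmox1, Gclc, Gpx4, Cat and Sod2) and the highest for Nqo1, and control 1 was the lowest for Nfe2l2, Nqo1 and Gclm. Over protein-coding transcripts alone, Gclm was instead lowest in control 2, at 125 FPKM, beside 147 FPKM in control 1. The SD of CPM was larger in the controls than in the libraries labelled knockout for 8 of 9 genes, all but Gpx1, beside 60.6% of all tested genes. Without control 2 it was larger for 7 of 9, beside 45.6% of all genes. Nqo1 and Hmox1, both targets of Nrf2, lay on opposite sides of their means in control 1 and control 2: in control 2 Nqo1 was 0.55 above and Hmox1 0.91 below its mean log2 CPM (a deviation of -0.91), and in control 1 they were at -0.34 and 0.59.

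**Figure D4:**
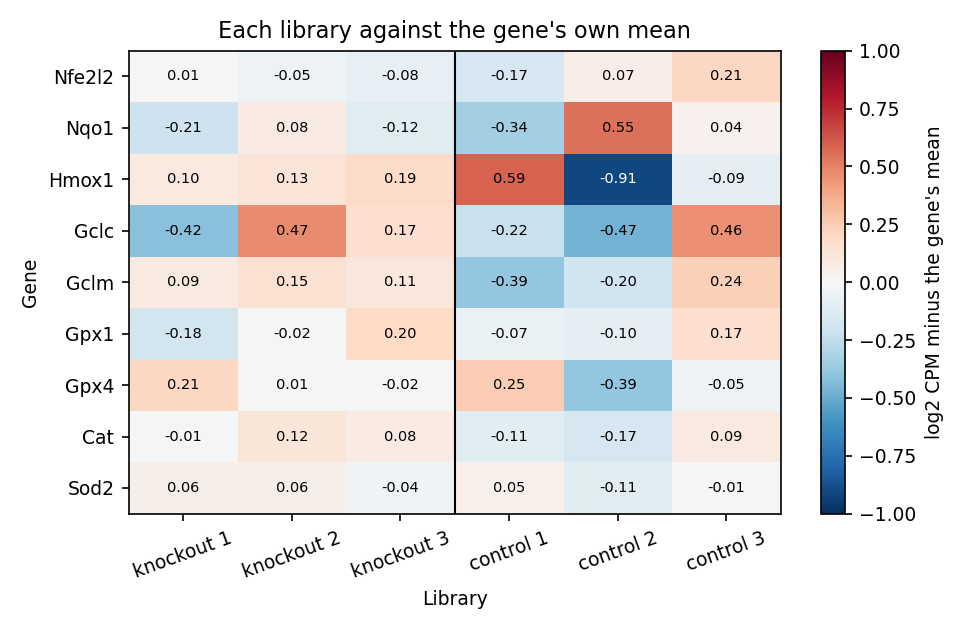
Log2 CPM of each of the 9 tested genes in each library minus the mean of that gene over the 6 libraries, red above and blue below, with a line between the libraries labelled knockout and the controls. The deepest colours are Hmox1 (-0.91) and Nqo1 (0.55) of control 2 and Hmox1 of control 1 (0.59), while the row of Sod2 is nearly blank.

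Per length, summed over all transcripts of a gene, the order of levels was led by the peroxide-removing enzymes. Gpx1 stood at 1492 ± 162 FPKM (SD over the 6 libraries), Gpx4 at 703 ± 94.5, Cat at 437 ± 26.7 and Gclm at 215 ± 39.7 FPKM, and the ranges of these neighbours did not overlap. Gclc at 97.5 ± 27.1 and Sod2 at 91.0 ± 2.49 FPKM did not differ beyond their spread, each being the higher in 3 libraries. Nfe2l2 at 44.2 ± 4.62, Nqo1 at 42.4 ± 11.5 and Hmox1 at 32.6 ± 9.10 FPKM followed, and each overlapped its neighbour in range. With protein-coding transcripts alone, a choice made after the values were seen, Gclm was at 154 FPKM and its range overlapped that of Gclc; its place in this order rests on the short transcripts described above.

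Regulators and partners of Nrf2 had 0 of 15 tested genes called by edgeR, 7 above 0 and 8 below, and a median log2 fold change of -0.03 (-0.07 to 0.03 with 1 library left out). Sqstm1, an autophagy receptor that competes for Keap1, was at 0.08 (SE 0.18), the ubiquitin ligase scaffold Cul3 at 0.08 (SE 0.10), the related factor Nfe2l1 at 0.05 (SE 0.11) and the partner Mafg at -0.15 (SE 0.10). Other known Nrf2 targets had 0 of 20 tested genes called, 12 above 0 (beside 7358 of all 15017 genes), and a median of 0.02. Among them, the ferritin chains Fth1 and Ftl1 were at 0.12 (SE 0.18) and 0.07 (SE 0.18), malic enzyme Me1 at 0.17 (SE 0.23) and the glutathione transferase Gstm1 at 0.15 (SE 0.14). Slc7a11, the cystine importer, was too rare to test at 0.232 to 0.304 CPM.

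Genes of glutathione synthesis and turnover had 0 of 13 called and a median log2 fold change of 0.10. Of the 13, 10 lay above 0, beside 7358 of all 15017 genes. Ggt1, which cleaves extracellular glutathione at the brush border, was at 0.12 (SE 0.20), Slc3a1 of the cystine transporter at 0.00 (SE 0.11), the mitochondrial carrier Slc25a39 at 0.19 (SE 0.15) and glutathione synthetase Gss at 0.12 (SE 0.13). With 1 library left out the median of this list ran from 0.00 (without control 2) to 0.15. Other enzymes that handle hydrogen peroxide and superoxide had 0 of 16 called and a median of 0.06, or -0.01 (without control 2) to 0.12 with 1 library left out. Within them, the peroxiredoxins Prdx5 and Prdx1 were at 0.09 (SE 0.17) and 0.16 (SE 0.12), and the cytosolic and extracellular dismutases Sod1 and Sod3 at 0.00 (SE 0.17) and 0.05 (SE 0.11).

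Selenium supply and selenoprotein synthesis, on which the peroxidases depend, had 0 of 10 called and a median of 0.04. Selenop, the plasma carrier of selenium, was at 0.46 (SE 0.26) and ranged from 1099 to 2735 CPM. Lrp2, the endocytic receptor through which proximal tubule takes it up, was at -0.19 (SE 0.13). Its groups did not overlap, as in 2 of the 10 genes of this list, against 8.18% of all tested genes. Sephs2, which makes the selenium donor, was at 0.13 (SE 0.11) and Scly, which recovers selenium, at 0.16 (SE 0.12). All 24 genes with an annotated selenocysteine in GENCODE M21 were a set added after the values were seen. Of these, 18 were tested, 0 were called and the median was 0.07. Above 0 lay 14 of the 18, beside 7358 of all 15017 genes. The lowest was Selenos at -0.30 (SE 0.12), with groups that overlapped. The highest was Dio1 at 0.58 (SE 0.15), with groups that did not overlap, against 8.18% of all tested genes. Dio1 is named as the extreme of the 18, and its adjusted p by edgeR was 0.9995. Gpx3, Gpx2 and Selenov are listed at 0 in every library.

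Haem synthesis and breakdown, the substrate side of Hmox1, had 0 of 13 tested genes called and a median of 0.09. With 1 library left out the median ran from 0.00 (without control 2) to 0.14. Of the 13 genes, 12 lay above 0, beside 7358 of all 15017 genes. An unadjusted edgeR p under 0.05 was reached by 1, against 3.23% of all genes, and 1 had groups that did not overlap, against 8.18%. Alas1, the first enzyme of haem synthesis, was at -0.31 (SE 0.26), the reductase Por at 0.02 (SE 0.15), Fech, which inserts iron, at 0.01 (SE 0.11), and the haem transporter Slc48a1 at 0.04 (SE 0.10). Sources of reactive oxygen species had 0 of 14 called and a median of 0.04 (-0.02 to 0.09 with 1 library left out). Nox4, the NADPH oxidase of kidney tubule, was at -0.27 (SE 0.21), and the peroxisomal oxidases Hao2 and Dao at -0.57 (SE 0.56) and 0.12 (SE 0.15). Genes of lipid peroxidation and ferroptosis had 0 of 11 called and a median of 0.04 (-0.08 to 0.05 with 1 library left out). Ncoa4, which delivers ferritin to lysosomes, was at 0.39 (SE 0.16) with groups that overlapped, Lpcat3 at 0.04 (SE 0.12), the transferrin receptor Tfrc at -0.28 (SE 0.19) and the iron exporter Slc40a1 at 0.18 (SE 0.15).

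Cell type markers, which show what each library holds, had 0 genes called by edgeR in any list. Medians of log2 fold change were -0.09 for proximal tubule (10 tested), 0.14 for thick ascending limb (3), -0.07 for distal convoluted tubule (3), -0.14 for collecting duct (5), -0.01 for podocytes (4) and -0.09 for endothelium (5). Without control 2 the last 3 turned sign, to 0.03, 0.17 and 0.02, while proximal tubule was at -0.19 and thick ascending limb at 0.25. Leaving out knockout 3 put distal convoluted tubule at 0.01. The 3 thick ascending limb markers were all above 0, and 2 of them had groups that did not overlap, against 8.18% of all genes. Groups did not overlap in 1 of the 5 collecting duct markers, and in 0 of those of distal convoluted tubule, podocytes and endothelium. Markers of fibroblasts and pericytes had a median of -0.42, with 6 of 6 below 0, beside 7659 of all 15017 genes. An unadjusted p under 0.05 was reached by 4 of the 6, against 3.23% of all genes, and 3 had groups that did not overlap, against 8.18%. Their summed level was 86.0 to 125 CPM in the libraries labelled knockout and 117 to 154 CPM in the controls. The summed level of proximal tubule markers was 17432, 15263 and 14483 CPM in the first group and 18859, 14218 and 16618 CPM in the second. Control 2 had the lowest sum, with knockout 3 nearly the same. Markers within the list went different ways in control 2. There Slc34a1 was the lowest of the 6 libraries and Aqp1, the water channel, the highest. Aqp1 was at 1380, 1053 and 1186 CPM in the libraries labelled knockout and at 1518, 1560 and 1485 CPM in the controls. Its groups did not overlap, as in 2 of the 10 markers, against 8.18% of all genes. Its log2 fold change was -0.33 (SE 0.13), and edgeR did not call it. The part of tubule content in the antioxidant values was not tested.

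**Figure D5:**
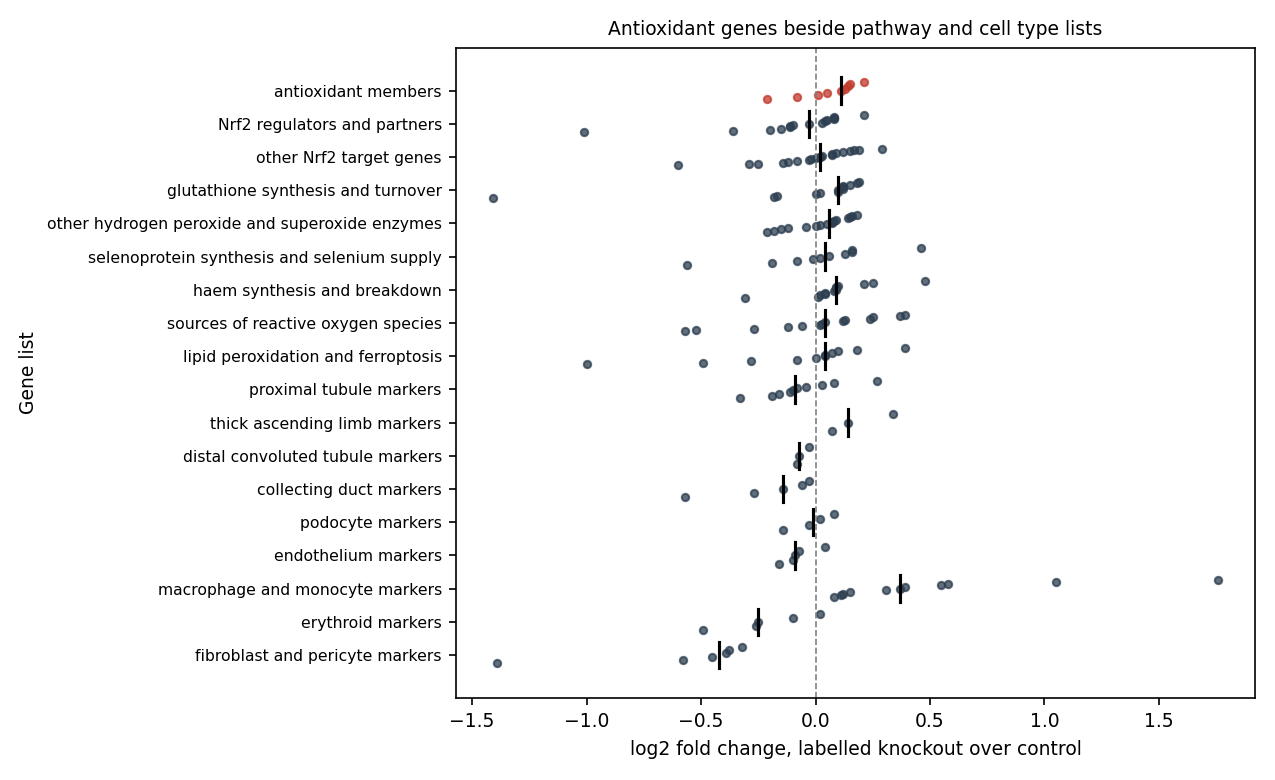
Log2 fold change of labelled knockout over control for each tested gene (points) of the antioxidant genes (red) and of the 17 pathway and cell type lists (dark), with a black line at each list's median. The antioxidant genes lie between -0.21 and 0.21, and the medians of the 8 pathway lists beneath them lie between -0.03 and 0.10.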

How the data were processed

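RNA-seq of 6 mouse kidney libraries (3 labelled knockout, 3 control) was analysed from 1 deposited table. The authors deposited estimated counts per transcript, not normalized, beside FPKM values. The submitters' processing notes list, in no stated order, HISAT2 2.0.1, Cuffdiff 2.2.1, cutadapt 1.9.1, FastQC 0.10.1, bcl2fastq 2.17.1.14 and build GRCm38. No source used here says which program estimated the counts. Groups came from sample titles.

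Counts were summed per gene symbol and rounded. The quasi-likelihood test of edgeR 4.0.16 (R 4.3.3) compared the groups with no covariate after TMM scaling and edgeR's own filter (minimum count 10), and p-values were adjusted by Benjamini-Hochberg over 15017 genes. Standard errors are |log2 fold change| over the root of the F statistic, and CPM uses TMM library sizes. DESeq2 1.42.0, limma 3.58.1 on log2(FPKM + 1) and log2(FPKM + 0.1), other scalings, no filter, sums per Ensembl ID, a replicate block and each library left out were alternatives. The procedure was tested on simulated data with larger changes than those estimated for the members. That test does not show how well differences of their size would be found. Apart from limma, FPKM served only for levels between genes. Named were all members, Ccnb1 and the 5 genes nearest in pattern to the most variable member. Up to 4 of the most abundant genes of each pathway list were also named. Slc7a11, Cd163, Aqp1, Kap, Gpx2, Selenov, Dio1, Selenos and the mitochondrial genes were added after their values were seen. 1 gene that this rule names is not reported here. Members and lists were chosen with earlier results of these data known.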

Additional observations from a re-analysis of the deposited data

How the results depend on the processing

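None of the 9 tested antioxidant genes was called in any of the 14 alternative fits, the lowest adjusted p being 0.8887. The number of calls over all genes was 2 (edgeR) and became 15 with DESeq2 (13 of them higher), 5 without a filter, 1 with library totals only and 1 in each limma fit on log2(FPKM + 1) and log2(FPKM + 0.1); with 1 library left out it ran from 1 to 6, the 6 without knockout 1. The median log2 fold change of the antioxidant genes ran from -0.04 (without control 2) to 0.11 with 1 library left out, and was 0.03 without knockout 2. Signs changed in 9 of 126 gene values, all with 1 library left out, where Nfe2l2 ran from -0.18 to 0.01, Nqo1 from -0.40 to 0.06, Hmox1 from -0.15 to 0.58, Gclc from -0.08 to 0.46, Gpx1 from -0.10 to 0.10 and Gpx4 from -0.04 to 0.28; 5 of the 9 came without control 2. With the replicate block 2 genes were called and the median of the antioxidant genes was 0.13. Libraries share a number only: deviations of same-numbered libraries correlated at 0.090, -0.091 and 0.116, and not every library matched its own number best. With 3 against 3, intervals as wide as that of Hmox1 limit what can be seen.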
